A study of Mus musculus with 6 samples.

Results

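The 44 genes described here are a fixed panel of mouse interferon response genes, each listed by symbol and found by its Entrez identifier in a count table of 21761 genes. All 44 were present in the table. They were followed in LT-HSCs (long-term haematopoietic stem cells), which sustain all blood lineages after transplantation, in a study that switched the RNA-binding protein IMP1 (gene Igf2bp1) on again in adult mice. Control donors were Rosa26 +/+;Mx1-Cre tg/+ and IMP1 donors were Rosa26 I/+;Mx1-Cre tg/+, in which I is a conditional IMP1 knock-in at Rosa26. Their CD45.2 marrow was transplanted into lethally irradiated CD45.1/2 hosts, and Cre was then induced in both groups by injecting poly(I:C), an RNA duplex that mimics a virus. Each library was made from 200 donor-derived cells with the surface phenotype CD45.2+ LSK CD150+ CD48- CD34-, sorted 8 weeks after the last injection, and there were 3 libraries per genotype. The labels call these biological replicates and do not give the number of animals behind each one.

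Every library came from cells that carried Mx1-Cre and had been exposed to poly(I:C). No untreated group and no group without Mx1-Cre was among the samples. These data therefore give the level of the interferon genes 8 weeks after induction and the difference between the genotype groups. They do not give the difference made by poly(I:C). Mx1-Cre is driven by the promoter of the interferon-induced gene Mx1, and its recombination is not restricted to stem cells.

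As background, double-stranded RNA is sensed by endosomal and cytosolic receptors that lead to the release of type I interferon. Interferon binds its receptor and activates Janus kinases, which phosphorylate STAT2. STAT2 joins IRF9 in a complex that binds the interferon-stimulated response element (ISRE) in the promoters of antiviral genes. Interferon gamma acts through another promoter element, the gamma-activated sequence (GAS). Interferon is known to drive dormant HSCs into division for a limited time, and many interferon-stimulated genes are also expressed in stem cells without infection.

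The promoters show the element through which the response is known to act. The window searched ran from 250 bases before to 50 bases after the start site of each gene, in RefSeq sequence of GRCm38.p6, and held 32 of the 44 genes. The ISRE core GAAANNGAAA, or its reverse complement TTTCNNTTTC, was found in 19 of the 32 promoters (59.4%), against 3.99% of the 27025 genes of the promoter table. The IRF half-site AANNGAAA (TTTCNNTT on the other strand), which is contained in every ISRE core, was found in 25 (78.1% against 26.7%). The GAS motif TTCNNNGAA, which reads the same on both strands, was found in 12 (37.5% against 9.55%). The ISRE match nearest to the start site lay at a median position of -59, counted in bases from the start site. Matches at more than 1 position were listed for 8 genes. For Trim30a, which is among them, the matches at -36 and 3 come from windows around different start sites and appear to be 1 site. Matches lay between positions -222 and 33. A match is a description of these letters and does not show that a factor binds. Sequences upstream of the start site are shown for the 4 genes that hold the ISRE core and either have an unadjusted p under 0.05 between genotypes or are among the 3 with the largest CPM. Each is read 5′ to 3′ on the strand of its gene, and capitals mark the ISRE core on either strand, with overlapping matches joined into 1 run.
Oas1a promoter, GRCm38.p6 chr5:120907526-120907574, minus strand: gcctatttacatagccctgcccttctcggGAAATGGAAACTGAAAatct
Gbp2 promoter, GRCm38.p6 chr3:142620569-142620648, plus strand: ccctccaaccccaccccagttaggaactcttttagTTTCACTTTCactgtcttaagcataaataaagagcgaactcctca
Gbp7 promoter, GRCm38.p6 chr3:142530248-142530327, plus strand: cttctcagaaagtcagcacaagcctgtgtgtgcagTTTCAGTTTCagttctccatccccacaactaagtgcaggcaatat
Irgm1 promoter, GRCm38.p6 chr11:48871421-48871479, minus strand: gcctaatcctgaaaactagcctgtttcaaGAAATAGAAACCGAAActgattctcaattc
The capitals begin at position -20 in the Oas1a promoter, -59 in Gbp2, -53 in Gbp7 and -30 in Irgm1. Oas1a and Irgm1 each hold a pair of overlapping copies on the gene's own strand, the second of which begins at -14 in Oas1a and at -24 in Irgm1, and Gbp2 and Gbp7 hold a single copy that reads on the opposite strand. These coordinates belong to the reference, not to the build behind the counts. Among the 19 genes with an ISRE core the median log2 fold change between genotypes was -0.01, with 10 of 19 negative. Among the 13 genes with a promoter in the table and no ISRE core it was -0.06, with 7 of 13 negative.

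Counts, the deposited unit, were read as CPM, the share of a library's counts taken by a gene and scaled up to a fixed total, after TMM scaling, a correction for library composition. Control libraries held 25749898 to 27338450 counts and IMP1 libraries 50220629 to 67083116, on average 2.26 times as many, and this difference in depth cannot be told apart from genotype. Igf2bp1 itself had 0, 0 and 1 counts in Control and 1870, 2084 and 2016 in IMP1 libraries, as the labels require. The summed level of 10 LT-HSC markers was 1578 to 1789 CPM in Control and 2051 to 2287 CPM in IMP1 libraries. Of the genes that the gate selects against, Cd48 was at 18.1, 1.86 and 2.84 CPM in Control and 26.8, 7.86 and 3.31 CPM in IMP1 libraries. Cd34 transcripts were present in every library, at 263, 317 and 270.0 CPM in Control and 213, 141 and 151 CPM in IMP1, although the sort was for cells without CD34 on their surface. Genotypes were compared with the quasi-likelihood F test of edgeR over all 12807 genes that passed the filter on low counts, with Benjamini-Hochberg adjustment over all of them.

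All 44 interferon genes passed the filter, and 43 had at least 1 count in each of the 6 libraries. None of the 44 was called between genotypes at an adjusted p under 0.05, against 0.211% of all tested genes (27 of 12807). An unadjusted p under 0.05 was found for 5 of 44 (11.4%), against 14.3% of all tested genes. Of these 5, Isg20, Oas1a, Irgm1 and Gbp2 were lower in IMP1 cells (the background in that direction was 7.63%) and Ifi44 was higher (background 6.67%). The values of the genotypes did not overlap for 4 genes that were lower in IMP1 cells, which is 9.09% against 11.1% of all tested genes. They did not overlap for 0 genes that were higher, against 10.7% of all tested genes. These shares lay near the background or below it. The lowest adjusted p of the panel was 0.191, for Isg20, and DESeq2 gave 0.057 as its lowest, 0 calls and 8 genes at an unadjusted p under 0.05. In bulk libraries such as these, fewer cells expressing a gene and less RNA of it per cell cannot be told apart.

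The log2 fold change of IMP1 against Control was positive for 19 genes and negative for 25 (56.8% negative, against 47.8% of all tested genes). Its median was -0.12, against 0.03 over all tested genes, and its median size without sign was 0.29 against 0.35. A missed threshold does not show that the genotypes were alike. For 26 genes the 95% interval of the difference lay within 1 log2 unit either way, and for the other 18 it reached past that, so a doubling or halving was not excluded for those at this number of libraries. The median distance from the estimate to the end of the interval was 0.53 log2 units. Summed over the 44 genes, the level was 4027, 3944 and 3912 CPM in Control 1, 2 and 3 (3961 ± 59.1, SD, n = 3) and 3227, 3886 and 3696 CPM in IMP1 1, 2 and 3 (3603 ± 339, SD, n = 3). All 3 IMP1 sums lay below the 3 Control sums, and IMP1 2 lay closest to them.

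**Figure D1:**
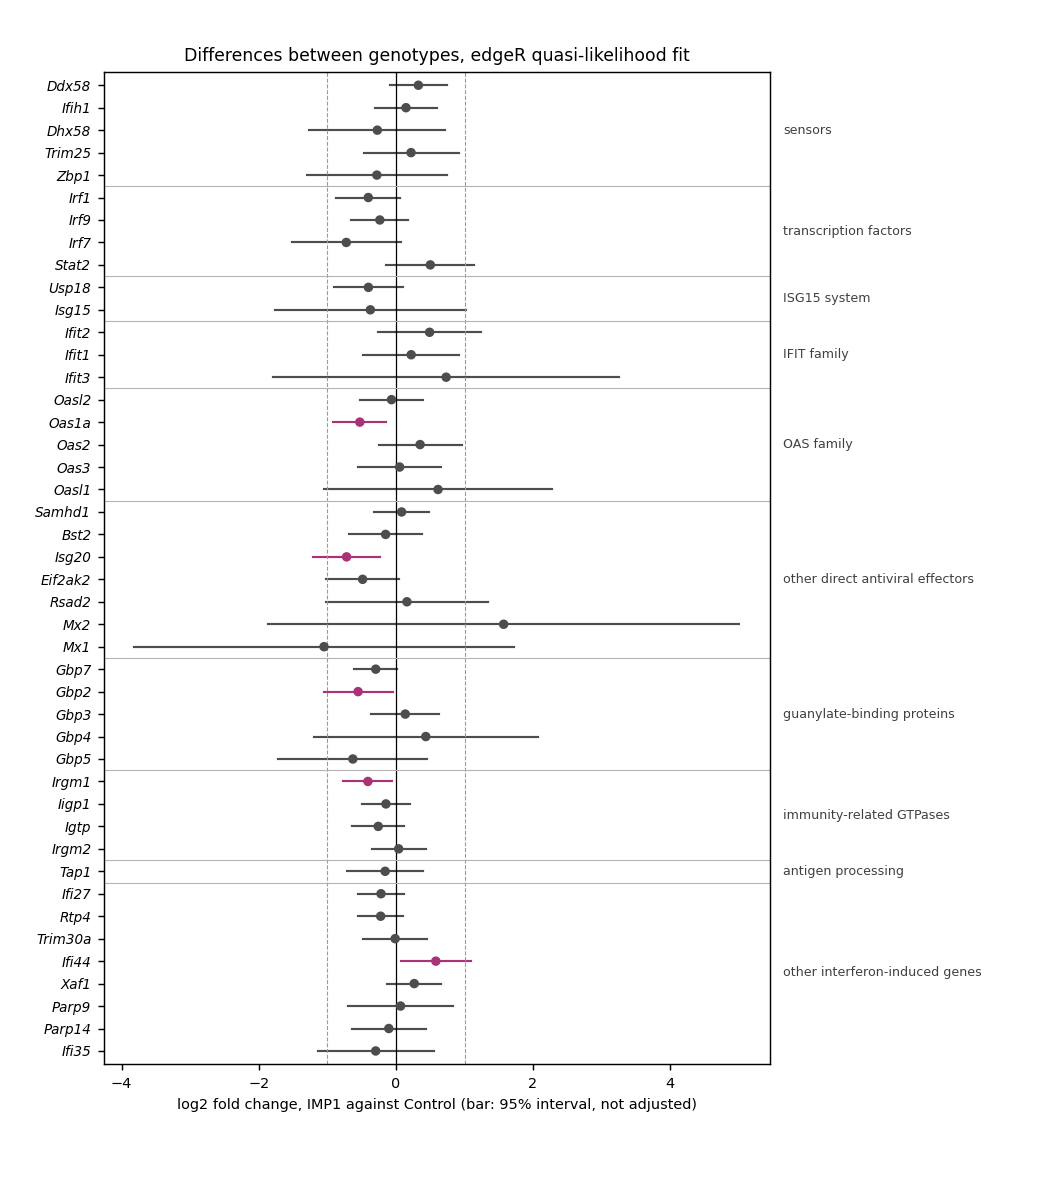
Log2 fold change of IMP1 against Control (horizontal axis) for the 44 interferon response genes, grouped by role, with bars for the 95% interval of the edgeR fit, not adjusted over genes. Dashed lines mark 1 log2 unit either way. The 5 genes in purple have an unadjusted p under 0.05, and the widest bars belong to Mx2, Mx1 and Ifit3.

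**Figure D2:**
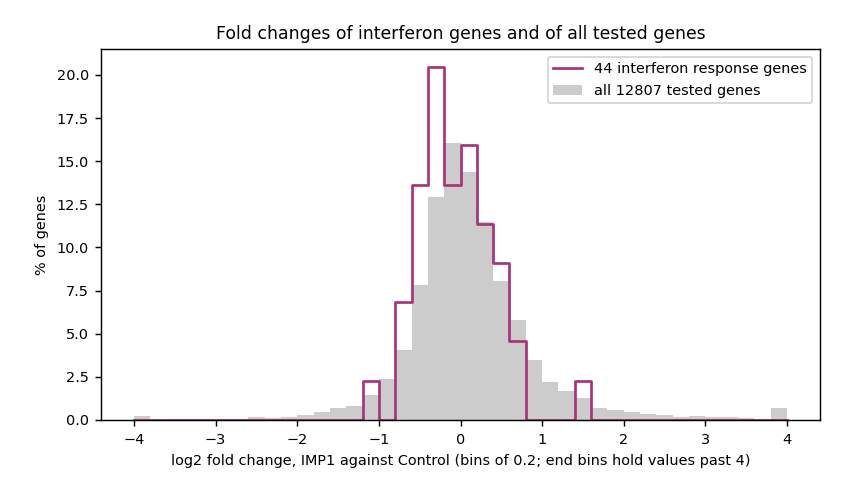
Share of genes (vertical axis, %) by log2 fold change of IMP1 against Control (horizontal axis, in bins of 0.2), for the 44 interferon response genes (line) and all 12807 tested genes (grey bars). Both distributions are centred near 0, with medians of -0.12 and 0.03.

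Measured per kilobase of the longest annotated transcript, which allows genes to be compared with each other, most of the panel was well expressed in both genotypes. Among the 12346 tested genes with a length, the 43 interferon genes with a length stood at a median percentile of 71.4 in Control and 74.7 in IMP1 cells, and 34 of the 43 were above the 50th percentile in each. The order of genes was nearly the same in both genotypes (Spearman's rho 0.976 across genes, which are not independent replicates). Ifi27 had the highest level per kilobase, 208 CPM per kb in Control and 179 CPM per kb in IMP1 cells (percentiles 97.1 and 97). Next in Control were Igtp at 106, Rtp4 at 101, Irf1 at 88.5 and Iigp1 at 87.6 CPM per kb. The lowest were Mx2 in Control (percentile 12.6) and Gbp5 in IMP1 cells (percentile 20.2). In the account by role that follows, values are CPM, not corrected for length, and the 3 values for a genotype are those of its libraries 1, 2 and 3 in that order.

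**Figure D3:**
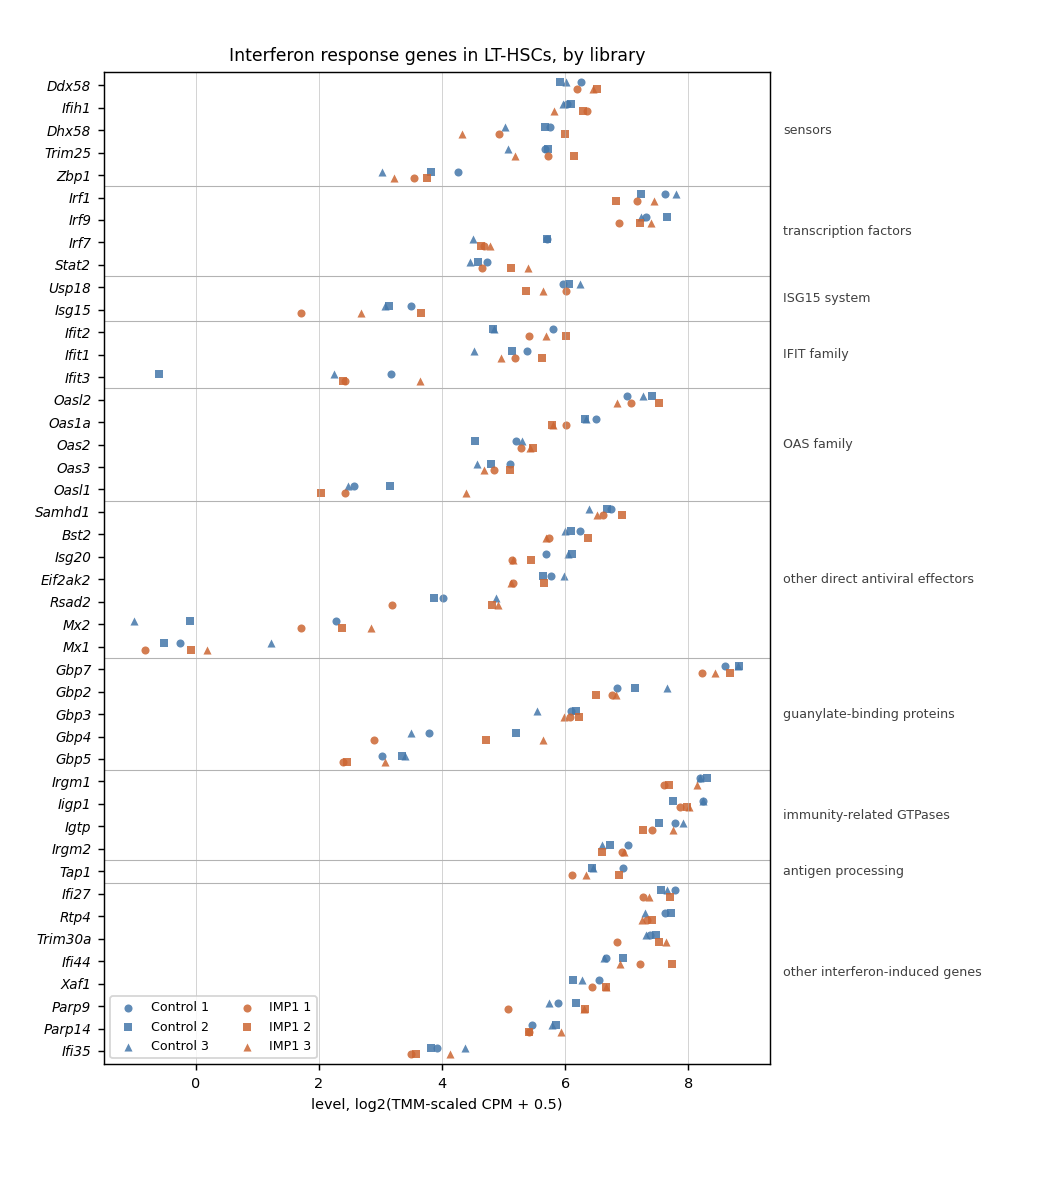
Level of each interferon response gene in each library, as log2(CPM + 0.5) after TMM scaling (horizontal axis), grouped by role. Blue symbols are the 3 Control libraries and orange symbols the 3 IMP1 libraries. Blue and orange symbols interleave for most genes, while Isg20, Oas1a, Irgm1 and Gbp2 have all orange symbols to the left of all blue ones.

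Among the sensors of RNA and DNA, no gene was called, with 3 positive and 2 negative log2 fold changes. Ddx58, which encodes RIG-I, the sensor of uncapped RNA ends, was at 76.1, 59.6 and 64 CPM in Control and 72.8, 91 and 86.7 CPM in IMP1 libraries. Ifih1, which encodes MDA5, the sensor of long double-stranded RNA, was at 64.8, 67.7 and 62.1 CPM in Control and 81.3, 78 and 56.1 CPM in IMP1 libraries. Control libraries were close to each other for Ifih1 (coefficient of variation 4.31%, the lowest of the panel), and IMP1 3 lay below all of them while IMP1 1 and 2 lay above. Dhx58, which encodes LGP2, a helicase that modulates both sensors, was at 53.6, 50.4 and 31.9 CPM in Control and 30.0, 63.1 and 19.4 CPM in IMP1 libraries. Trim25, a ubiquitin ligase that promotes RIG-I signalling, was at 50.3, 52.2 and 33 and 52, 70.1 and 36 CPM. The highest and the lowest library for Dhx58 were both IMP1 libraries, 2 and 3. Zbp1, a sensor of Z-form nucleic acids that can trigger necroptosis, was at 18.7, 13.7 and 7.61 CPM in Control and 11.2, 13 and 8.81 CPM in IMP1 libraries, with the groups overlapping.

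The adaptors downstream of the sensors were taken from a separate list of 11 genes, of which 8 were tested and 0 called, and an unadjusted p under 0.05 was reached by 2 genes with a higher and 2 with a lower level in IMP1 cells. Sting1, the adaptor of cytosolic DNA sensing, was at 90.7, 115 and 140.3 CPM in Control and 41.1, 45.4 and 47.9 CPM in IMP1 libraries. All 3 IMP1 values lay below the lowest Control value, with a log2 fold change of -1.36 (SE 0.20) and an adjusted p of 0.054, just short of the threshold. DESeq2, the fit without a filter on low counts, the stricter filter, thinning to equal depth and the newer edgeR setting legacy = FALSE each called Sting1 lower. Myd88, the adaptor of most Toll-like receptors, was at 86.5, 84.5 and 72.5 CPM in Control and 47.3, 37.8 and 45.6 CPM in IMP1 libraries, also without overlap (-0.90, SE 0.19, adjusted p = 0.0887). Tbk1, the kinase that activates IRF3, was at 129, 90.6 and 78.4 and 108, 71.4 and 117 CPM, with overlapping groups.

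Transcripts of the interferons themselves were nearly absent. Of 10 ligand genes, 8 had 0 counts in every library, and the 10 together had 28 counts in all 6 libraries. Of these, 27 were Ifnk counts and 1 was an Ifnb1 count, all in IMP1 1. A count of 0 allows a level of up to 0.11 to 0.117 CPM in a Control library and up to 0.0447 to 0.0597 CPM in an IMP1 library (3 counts, counting error only). These limits were taken over the total counts of each library, without the TMM scaling applied to the other CPM values.

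Receptors and Janus kinases were present, and of 9 genes on that list 8 were tested and 0 called. Jak1, the kinase shared by the receptors of type I and type II interferon, was at 282, 306 and 268 CPM in Control and 227, 246 and 279.8 CPM in IMP1 libraries. Ifngr1, the ligand-binding chain of the interferon gamma receptor, was at 164, 133 and 189 and 127, 129 and 156 CPM. Groups overlapped for both. Il10rb, a chain shared by the receptors of interferon lambda and interleukin 10, was at 48.2, 56.4 and 64 and 36.8, 38 and 44.6 CPM, with all IMP1 values below the Control values (-0.50, SE 0.21, adjusted p = 0.328).

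Of the 4 interferon-related transcription factors in the panel none was called, with 1 positive and 3 negative log2 fold changes. Stat2 and Irf9 encode parts of the ISRE-binding complex. Stat2 was at 26, 23.4 and 21.5 CPM in Control and 24.5, 34.1 and 41.8 CPM in IMP1 libraries, with IMP1 2 and 3 above every Control library. Irf9 was at 159, 200.4 and 149 CPM in Control and 116, 148 and 168 CPM in IMP1 libraries. Irf1, an activator that interferon gamma induces strongly, was at 196, 149.8 and 222 CPM in Control and 143, 113 and 173 CPM in IMP1 libraries. Irf7, the factor that amplifies type I interferon production, was at 51.9, 51.6 and 22.1 and 25, 24.2 and 26.9 CPM. Control 1 and 2 stood well above the other 4 libraries for Irf7, and Control 3 was the lowest of all 6.

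Genes that restrain interferon signalling were taken from a further list of 9 genes, all tested and 0 called. Ptpn6, which encodes the phosphatase SHP-1, was at 350.0, 303 and 243 and 321, 264 and 377 CPM, and Ptpn11, which encodes the related SHP-2, was at 14.1, 13.9 and 18.5 and 14.1, 25.2 and 28.8 CPM. Ptpn2, a phosphatase that acts on Janus kinases, was at 130.1, 140.3 and 112 CPM in Control and 194, 145 and 146 CPM in IMP1 libraries, all above the Control values (0.34, SE 0.17, adjusted p = 0.404). Of the other IRF genes, 4 of 5 were tested and 0 called. Irf3, which carries the first signal from the sensors to the interferon genes, was at 36.3, 52.1 and 49.6 and 38.1, 30.7 and 37 CPM, with overlap.

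The ISG15 system held 2 genes, both with a negative log2 fold change and neither called. Isg15, a ubiquitin-like modifier, was at 10.8, 8.31 and 7.93 CPM in Control and 2.76, 12.2 and 5.93 CPM in IMP1 libraries. The highest and lowest values were both in the IMP1 group, in IMP1 2 and IMP1 1. Usp18, the protease that removes ISG15 and also restrains the interferon receptor, was at 62.1, 66 and 75.5 CPM in Control and 63.8, 40.8 and 49.6 CPM in IMP1 libraries, with IMP1 1 inside the Control range.

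The 3 IFIT genes, which encode RNA-binding proteins that limit translation of viral RNA, all had a positive log2 fold change (median 0.49) and none was called. Ifit1 was at 41.3, 34.9 and 22.5 CPM in Control and 35.8, 48.7 and 30.6 CPM in IMP1 libraries. Ifit2 was at 55.5, 28 and 28.1 CPM in Control and 42.2, 63.9 and 50.9 CPM in IMP1 libraries. Ifit3 was at 8.53, 0.158 and 4.24 CPM in Control and 4.85, 4.72 and 11.9 CPM in IMP1 libraries. Groups overlapped for each of them, and the Control 2 value of Ifit3 stood far below the other 5. Ifit3 has a near-identical copy, Ifit3b, and Ifit1 overlaps Ifit1bl1, so the counts of both depend on how shared reads were assigned.

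Among the OAS genes, which encode synthases of oligoadenylates that activate RNase L and their relatives, 3 log2 fold changes were positive and 2 negative. Oas1a (Entrez gene 246730, chromosome 5) was at 90.5, 79.2 and 80.5 CPM in Control and 64, 54.5 and 55.2 CPM in IMP1 libraries. The highest IMP1 value lay below the lowest Control value. The means were 83.4 ± 6.21 CPM in Control and 57.9 ± 5.26 CPM (SD, n = 3), a log2 fold change of -0.53 (SE 0.17, 95% interval -0.91 to -0.14, adjusted p = 0.221). Over the 17 alternative fits its adjusted p ranged from 0.094 to 0.514. Its near-identical neighbour Oas1g was at 44.4, 31.1 and 40.4 CPM in Control and 28.8, 37.4 and 29.5 CPM in IMP1 libraries, and reads shared by the copies could have been counted for either. The related gene Oas1b, outside the panel, went the other way, at 5.30, 7.68 and 7.37 CPM in Control and 21.4, 23.5 and 8.03 CPM in IMP1 libraries. Its groups did not overlap (log2 fold change 1.38, adjusted p = 0.269). Oas2 was at 36.3, 22.6 and 38.9 CPM in Control and 38.6, 43.8 and 42.3 CPM in IMP1 libraries. Oas3 was at 33.7, 27.2 and 23.1 and 28.1, 34.1 and 25.1 CPM. Neither gene separated the groups, and Control 2 was the lowest library for Oas2. Oasl1, known in mice to repress translation of Irf7 mRNA, was at 5.41, 8.43 and 5.04 and 4.88, 3.59 and 20.4 CPM, and IMP1 3 stood far above the other 5 libraries. Oasl2, a relative with a ubiquitin-like domain, was at 128, 170.2 and 154 CPM in Control and 134, 183 and 115 CPM in IMP1 libraries, a range that crossed the whole Control range.

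Of 7 other direct antiviral effectors, 3 had a positive and 4 a negative log2 fold change. Isg20 (Entrez gene 57444, chromosome 7), an exonuclease that degrades viral RNA, had the lowest p of the panel. Its level was 51.3, 68.5 and 65.7 CPM in Control and 34.7, 43 and 35 CPM in IMP1 libraries, and all 3 IMP1 values lay below the lowest Control value. The means were 61.9 ± 9.22 CPM in Control and 37.6 ± 4.75 CPM (SD, n = 3), a log2 fold change of -0.72 (SE 0.21, 95% interval -1.21 to -0.23, adjusted p = 0.191). Over the 17 alternatives its adjusted p ranged from 0.057 to 0.493. Eif2ak2, which encodes PKR, the kinase that stops translation on double-stranded RNA, was at 54.3, 49.6 and 62.6 CPM in Control and 34.9, 49.9 and 34.1 CPM in IMP1 libraries, where IMP1 2 reached the Control range. Samhd1, which depletes nucleotides needed for reverse transcription, was at 106, 102 and 83.3 CPM in Control and 97.1, 121 and 91.1 CPM in IMP1 libraries. Bst2, which encodes tetherin, was at 75.5, 68.1 and 63.4 and 53, 82.2 and 51.3 CPM. Each of these 3 genes overlapped between groups, and IMP1 2 was the highest of the IMP1 libraries each time. Rsad2, which encodes viperin, was at 15.7, 14.2 and 28.9 CPM in Control and 8.60, 27.6 and 29.5 CPM in IMP1 libraries. Mx2, a dynamin-like GTPase, was at 4.32, 0.435 and 0 CPM in Control and 2.78, 4.68 and 6.71 CPM in IMP1 libraries. For Mx2 the Control libraries ran from 0 counts to a level close to that of IMP1 2, and its 95% interval reached from -1.87 to 5.01.

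Mx1, the antiviral GTPase whose promoter drives the Cre used here, was the least covered gene of the panel. It had 9, 5 and 46 counts in Control and 4, 31 and 33 counts in IMP1 libraries, that is 0.338, 0.198 and 1.84 CPM and 0.0628, 0.447 and 0.636 CPM. Each group held a library below 0.5 CPM, and the highest of the 6 was Control 3. Many inbred laboratory strains carry a defective Mx1 gene, and the labels used here do not name the strain of these donors. The log2 fold change was -1.05, with a 95% interval from -3.82 to 1.72.

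The guanylate-binding proteins are GTPases that coat and disrupt the membranes of pathogens, and the 5 in the panel had 2 positive and 3 negative log2 fold changes. Gbp7 (Entrez gene 229900, chromosome 3) had the largest CPM of the panel, at 386, 454 and 446 in Control and 298, 409 and 344 in IMP1 libraries. IMP1 2 lay inside the Control range and the other IMP1 libraries below it. The means were 429 ± 37.1 CPM in Control and 349.9 ± 55.8 CPM (SD, n = 3), a log2 fold change of -0.29 (SE 0.14, 95% interval -0.61 to 0.0183, adjusted p = 0.384). With the trend on transcript length and GC content removed its log2 fold change was -0.51 (adjusted p = 0.216, the lowest of a range up to 0.611 over the alternatives), and without IMP1 1 it was -0.19. Gbp2 (Entrez gene 14469, chromosome 3) was at 114, 140.5 and 201 CPM in Control and 108, 89.9 and 113 CPM in IMP1 libraries. The groups did not overlap, by a gap of about 1 CPM between Control 1 and IMP1 3, and Control 3 stood high. The means were 152 ± 44.6 CPM in Control and 104 ± 12.1 CPM (SD, n = 3), a log2 fold change of -0.55 (SE 0.22, 95% interval -1.05 to -0.0481, adjusted p = 0.306, and 0.139 to 0.696 over the alternatives). Without Control 3 the log2 fold change was -0.30. Gbp3 was at 67.8, 71.8 and 45.9 CPM in Control and 66.9, 74.1 and 62.9 CPM in IMP1 libraries. Gbp4 was at 13.3, 36.5 and 10.8 CPM in Control and 6.92, 25.8 and 49.2 CPM in IMP1 libraries. Gbp5 was at 7.66, 9.66 and 10.1 and 4.77, 5.01 and 7.96 CPM. Gbp4 differed several-fold between libraries of the same genotype, and all 3 genes overlapped between groups. Genes of this family are similar in sequence and lie in clusters, so the split of reads among them is uncertain.

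The immunity-related GTPases act on vacuoles that hold intracellular pathogens, and of the 4 in the panel 1 had a positive and 3 a negative log2 fold change. Irgm1 (Entrez gene 15944, chromosome 11), a regulatory member whose loss in mice is known to impair HSCs, was at 293, 317 and 293 CPM in Control and 193, 205 and 281 CPM in IMP1 libraries. Control libraries were tightly grouped, and IMP1 3 came close to them while IMP1 1 and 2 stood apart. The means were 301 ± 13.8 CPM in Control and 227 ± 47.8 CPM (SD, n = 3), a log2 fold change of -0.41 (SE 0.15, 95% interval -0.76 to -0.0530, adjusted p = 0.289). With IMP1 1 and IMP1 2 both left out the log2 fold change was -0.10, so its size rests on those 2 libraries. Iigp1 (Entrez gene 60440, chromosome 18), an effector member, was at 303, 215 and 302 CPM in Control and 234, 252 and 256 CPM in IMP1 libraries. The IMP1 libraries lay close together inside the Control range (means 274 ± 50.6 CPM in Control and 247 ± 12 CPM, SD, n = 3, log2 fold change -0.15, SE 0.15, 95% interval -0.49 to 0.20, adjusted p = 0.721). This value rests on single Control libraries, since the log2 fold change was -0.29 without Control 2, the lowest library, and -0.07 without Control 1 or without Control 3. Igtp, also known as Irgm3, was at 221, 183 and 240.3 CPM in Control and 171, 153 and 215 CPM in IMP1 libraries. Irgm2 was at 129.9, 105 and 96.7 and 121, 96.4 and 124 CPM, and both regulatory genes overlapped between groups.

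Of 8 other interferon-induced genes, 3 had a positive and 5 a negative log2 fold change. Ifi44 (Entrez gene 99899, chromosome 3) was at 101, 122 and 98.1 CPM in Control and 149, 213 and 118 CPM in IMP1 libraries. It was the only gene of the panel with a positive log2 fold change and an unadjusted p under 0.05, yet the groups overlapped, since IMP1 3 lay below Control 2. The means were 107 ± 12.9 CPM in Control and 159.9 ± 48.9 CPM (SD, n = 3), a log2 fold change of 0.58 (SE 0.22, 95% interval 0.0669 to 1.10, adjusted p = 0.297). It was 0.32 without IMP1 2 and 0.14 with IMP1 1 and IMP1 2 both left out. Ifi27, a mitochondrial protein, was at 221, 187 and 202 CPM in Control and 153, 207 and 164 CPM in IMP1 libraries. Rtp4, a chaperone of G protein-coupled receptors, was at 197, 209.5 and 156 and 161, 170.0 and 152 CPM. Trim30a, a TRIM protein known in mice to dampen Toll-like receptor signalling, was at 165, 178 and 159 and 115, 184 and 199 CPM. These 3 genes were above 100 CPM in every library and overlapped between groups. Xaf1, which counters the apoptosis inhibitor XIAP, was at 93.1, 69.8 and 76.9 CPM in Control and 86, 101 and 101 CPM in IMP1 libraries. Parp9, an ADP-ribosyltransferase family member that partners with Dtx3l, was at 58.2, 71.6 and 52.6 and 33.2, 79.3 and 78.7 CPM. IMP1 1 stood below all other libraries for Parp9. Parp14, an ADP-ribosyltransferase, was at 43.5, 57.1 and 54.9 CPM in Control and 42.3, 41.9 and 60.7 CPM in IMP1 libraries. Ifi35 was at 14.5, 13.6 and 20.2 and 10.8, 11.5 and 17.1 CPM, with overlap for both. The spans of Stat2 and Apof, Ifi27 and Ifi27l2a, Rtp4 and Masp1, Eif2ak2 and Gm6548, and Parp9 and Dtx3l overlap in the reference, and no source used here gives the strand setting of the counting, so these counts are uncertain.

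Tap1, a subunit of the peptide transporter that loads MHC class I, was the one antigen-processing gene of the panel, at 122, 86.3 and 87.5 CPM in Control and 68.2, 117 and 80.2 CPM in IMP1 libraries, with overlap. The list of 12 further MHC class I genes had 0 calls, with 3 positive and 9 negative log2 fold changes, of which 1 positive and 5 negative had an unadjusted p under 0.05. B2m, the invariant light chain, was at 5513, 5826 and 5860.3 CPM in Control and 5759, 6583 and 5992 CPM in IMP1 libraries. H2-D1, a heavy chain, was at 1805, 1510.0 and 1862 and 1263, 1629 and 1398 CPM. The groups overlapped for both. Nlrc5, the transactivator of class I genes, was at 45, 50.3 and 61.8 CPM in Control and 76.3, 113 and 115 CPM in IMP1 libraries, without overlap and higher in IMP1 (0.95, SE 0.22, adjusted p = 0.11). Psme1, a subunit of the proteasome activator PA28, was at 581, 612 and 619 and 455, 497 and 487 CPM, without overlap and lower in IMP1 (-0.33, SE 0.0850, adjusted p = 0.134). Named after their values were seen, 3 of the other 4 proteasome genes of the list, Psmb8, Psmb10 and Psme2, lay lower in every IMP1 library than in any Control library, with log2 fold changes of -0.43, -0.37 and -0.30 (adjusted p = 0.192, 0.207 and 0.322). The groups overlapped for the remaining one, Psmb9, at 226, 212 and 260.2 CPM in Control and 193, 217 and 195 CPM in IMP1 libraries (-0.21, adjusted p = 0.499).

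A list of 30 further interferon-stimulated genes had 0 calls, with 10 positive and 20 negative log2 fold changes, of which 3 positive and 7 negative had an unadjusted p under 0.05. Lgals9, which encodes the lectin galectin-9, was at 1210.4, 1164 and 1178 CPM in Control and 757, 622 and 830.0 CPM in IMP1 libraries. All IMP1 values lay well below the Control values (-0.69, SE 0.11, adjusted p = 0.0614). Ifi47, an immunity-related GTPase, was at 458, 462 and 529.8 CPM in Control and 246, 293 and 341 CPM in IMP1 libraries, again without overlap (-0.72, SE 0.14, adjusted p = 0.0798). Ly6e, a surface protein that limits virus entry, was at 1766, 1601 and 2125 and 1153, 1194 and 1392 CPM, without overlap (-0.55, SE 0.12, adjusted p = 0.0991). Ifitm3, which blocks virus fusion, was at 1103, 1064 and 1262 and 999, 1015 and 993 CPM, where the IMP1 values lay below the lowest Control value by a small margin (-0.19, adjusted p = 0.375). The 5 interferon-induced chemokine genes were barely detected, and 2 of them, Cxcl10 and Ccl5, were tested. Cxcl10 was at 2.40, 2.33 and 0.0400 CPM in Control and 3.01, 11.2 and 2.31 CPM in IMP1 libraries. Ccl5 was at 0.864, 0.950 and 0 and 1.32, 0 and 0.0578 CPM, and Cxcl11 was at 0.113, 0.198 and 2.52 and 0.675, 0.0289 and 0.0385 CPM.

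Over the 8 lists of other pathway genes, 73 of 91 genes were tested and 0 were called by edgeR, while 12 were called by DESeq2, 3 higher and 9 lower. An unadjusted p under 0.05 was found for 22 genes, 7 of them higher and 15 lower in IMP1 cells, or 30.1% of those tested, against 14.3% of all tested genes and 11.4% of the 44 panel genes. The groups did not overlap for 15 that were lower (20.5%, against 11.1% of all tested genes) and 8 that were higher (11%, against 10.7%). The median log2 fold change of these 73 genes was -0.15. No test of the panel against these lists was made.

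The median coefficient of variation of a panel gene between libraries was 16.0% in Control and 21.7% in IMP1 cells, against 25.4% and 24.7% over all tested genes. The comparison was not matched for level. Per kilobase, the panel stood at a median percentile of 71.4 in Control and 74.7 in IMP1 cells, so lower variation is not shown to be a trait of the panel. The libraries were not equal in their part in the variation of the panel. IMP1 2 held the highest of the 6 values for 15 panel genes (34.1%, against 19.5% of all tested genes), and IMP1 1 held it for 1 (2.27%, against 15.2%). IMP1 1 held the lowest of the 6 values for 14 (31.8%, against 13.8%), and Control 1 held it for 0 (against 16.3%). Among Control libraries, Control 3 was the lowest for 22 of the 44 panel genes, against 30.6% of all tested genes.

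**Figure D4:**
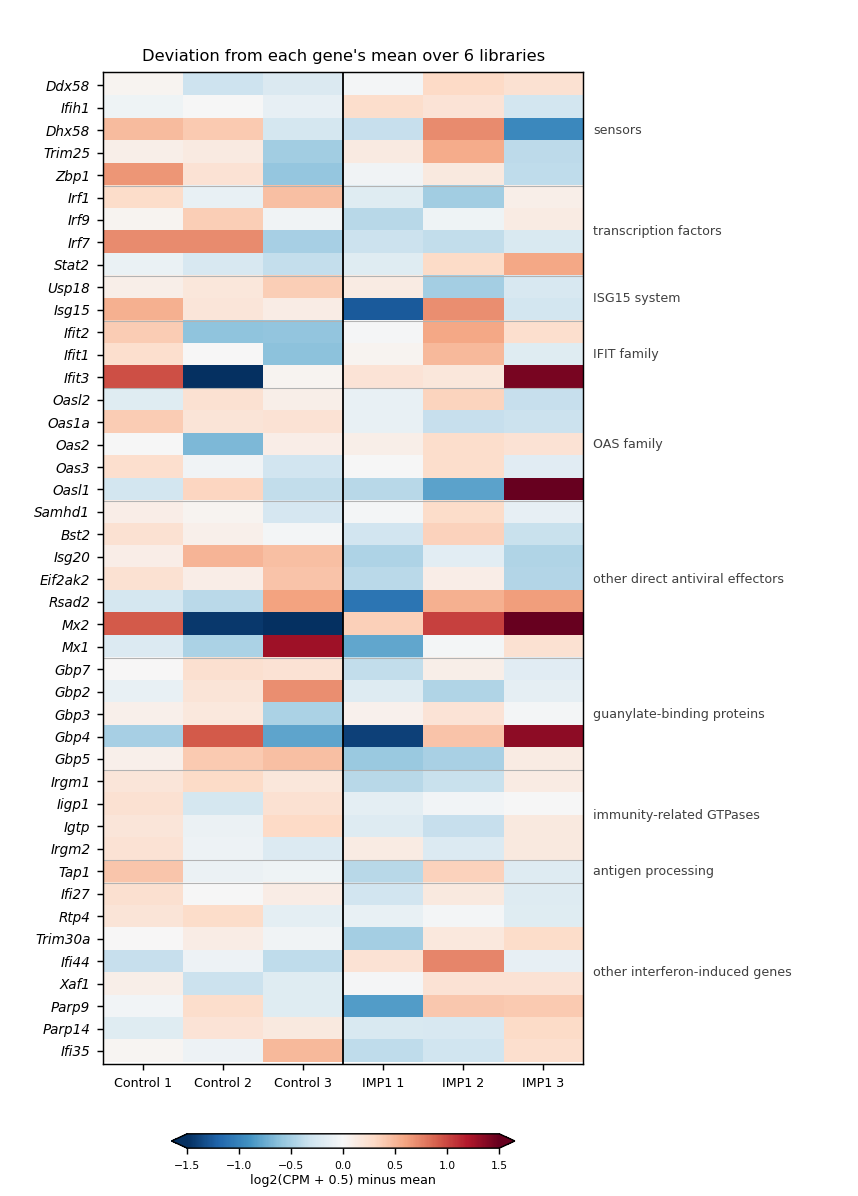
Deviation of each interferon response gene in each library (columns) from the mean of that gene over 6 libraries, in log2(CPM + 0.5), grouped by role. Colours end at 1.5 log2 units either way. Blue cells are frequent in the IMP1 1 column, the lowest library for 14 genes, and red cells in the IMP1 2 column, the highest for 15, while the deepest colours belong to genes of low count such as Mx2, Ifit3, Oasl1 and Gbp4.

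Transcripts of other blood cells also differed between the libraries. The summed level of 7 neutrophil markers was 713.7 CPM in IMP1 1, 296.8 CPM in IMP1 2 and 18.9 to 47.8 CPM in the other 4 libraries. S100a8, S100a9, Ngp, Camp and Ltf were higher in IMP1 1 and IMP1 2 than in any Control library. Mpo went the other way, at 25.3, 7.40 and 0.360 CPM in Control and 0.0314, 0 and 0 CPM in IMP1 libraries. Its log2 fold change was -9.66 (adjusted p = 0.085), and that of Elane was -1.48, with overlapping groups. The summed level of 6 erythroid markers was higher in every IMP1 library than in any Control library, at 40.2, 35.3 and 42.8 CPM in Control and 304.7, 69.6 and 85.5 CPM in IMP1 libraries. Of these 6 markers, the globin gene Hbb-b1 was called, with a log2 fold change of 1.89 (SE 0.26) towards IMP1 and an adjusted p of 0.0448. Both lists had every marker detected in at least 1 library. The 6 T and NK cell markers summed to 4.04 to 7.29 CPM in Control and 12.8 to 37.7 CPM in IMP1 libraries, with Cd3g and Ncr1 at 0 in every library. The higher IMP1 sums came mainly from Klrb1c, at 2.37, 0.277 and 5.56 CPM in Control and 11.8, 34.1 and 13.9 CPM in IMP1 libraries. Cd3d and Cd8a overlapped between groups, with log2 fold changes of 0.22 and -0.34, and Cd3e had 3 counts, all in IMP1 2. The 5 B cell markers summed to 69.2 to 85.5 CPM in Control and 78.1 to 111.6 CPM in IMP1 libraries, with Ms4a1 at 0. Plasmacytoid dendritic cells, strong producers of interferon, had marker sums of 116 to 158 CPM in Control and 146 to 158 CPM in IMP1 libraries, and their defining marker Siglech was below 0.5 CPM in each. Monocyte and macrophage markers summed to 2.52 to 5.03 CPM in Control and 5.92 to 6.74 CPM in IMP1 libraries. Megakaryocyte markers summed to 328 to 662 CPM in Control and 231 to 441 CPM in IMP1 libraries, and mast cell and basophil markers to 36.0 to 44.9 and 2.45 to 14.7 CPM, with Gzmb at 0. The part of these cells in the levels of the interferon genes was not tested. With IMP1 1 and IMP1 2 both left out, an alternative chosen after the data were seen, 0 panel genes were called, 3 had an unadjusted p under 0.05 and the median log2 fold change was -0.10.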

How the data were processed

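RNA of sorted LT-HSCs was measured in 3 Control and 3 IMP1 libraries. Whole-number counts of reads for each Entrez gene were deposited by the authors in a table of all 6 libraries. TopHat2 2.0.10 and the mm9 build are listed, per the submitters' processing notes, without a role. No source used here gives the counting program, its strand setting or its annotation. Symbols came from a RefSeq table, which matched 21615 of 21761 identifiers, and the promoters are RefSeq sequence of GRCm38.p6. Transcript lengths are those of the longest annotated transcript.

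Counts were fitted with edgeR 4.0.16 in R 4.3.3 (glmQLFit and glmQLFTest, TMM scaling, filterByExpr, genotype as the single term, all 6 libraries). The standard error of a log2 fold change is its size over the root of F. The fit was tested on simulated data. Alternatives used DESeq2 1.42.0, limma 3.58.1 (voom), other scalings and filters, thinning to 25749898 counts, removal of a trend on length and GC content, an adjusted p under 0.10, the replicate number as a block and each library left out. Added after the data were seen were legacy = FALSE and a fit without IMP1 1 and IMP1 2.

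The cDNA was amplified from 200 cells without molecular identifiers, so limits on a count of 0 cover counting error only. P-values measure the spread between these libraries. No libraries were duplicates (chi-square per degree of freedom at least 61.0). The panel, the other gene lists and the tests were chosen with earlier results of these data known. All panel genes are given. Values per library are given for those with a count above 100 in some library, and for Mx1. Full statistics are given for those with an unadjusted p under 0.05 or among the 3 with the largest CPM. From each other list, the text names the 2 genes with the lowest p and the 2 with the largest CPM. Some genes that met this rule are not reported here. Members without a promoter in the table were Mx1, Mx2, Oas2, Usp18, Ifi27, Dhx58, Rtp4, Gbp4, Iigp1, Parp9, Parp14 and Zbp1.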

Additional observations from a re-analysis of the deposited data

How the results depend on the processing

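None of the 44 interferon genes was called in any of the 17 alternative fits, or at an adjusted p under 0.10, and the median log2 fold change of the panel was negative in each, from -0.156 to -0.0106. The sign of the single fold change held in all 17 fits for 22 genes and turned in at least 1 fit for the other 22, so the direction of those is not settled. The number of genes called over the whole table was 27. It was 16 without scaling, 103 with the stricter filter on low counts, 694 with DESeq2, 11 with limma-voom, 11 with the length and GC trend removed, 49 with legacy = FALSE, 0 with IMP1 1 and IMP1 2 both left out, 231 at an adjusted p under 0.10, and 0 to 2 with any 1 library left out. Of the pathway genes outside the panel, 0 were called, against 1 without a filter on low counts (Sting1), 3 with the stricter filter (Ifi47, Lgals9 and Sting1), 12 with DESeq2, 1 after thinning (Sting1), 2 with legacy = FALSE (Lgals9 and Sting1) and 5 at an adjusted p under 0.10. The same-numbered libraries of the genotypes did not deviate together (correlations 0.0149, 0.031 and -0.00831). The labels do not say whether the numbers pair the libraries, and these correlations cannot settle it. With the replicate number as a block 4 genes were called over the whole table and 0 of the panel, and Parp9 turned to -0.024.

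The other log2 fold changes that turned sign, with IMP1 1 and IMP1 2 both left out, were Ifit1 at -0.10, Oas3 at -0.16, Ifi35 at 0.086, Ifih1 at -0.21, Igtp at 0.0067, Parp14 at 0.23, Trim25 at -0.33, Trim30a at 0.25 and Samhd1 at -0.094. With the trend removed they were Oas3 at -0.0091, Ifih1 at -0.051 and Bst2 at 0.016, without scaling Oasl2 at 0.029 and Trim30a at 0.083, with limma-voom Parp9 at -0.040, and with the stricter filter Trim30a at 0.0056. With 1 library left out, the log2 fold change ranged from -1.05 to 0.0090 for Isg15, -1.61 to 0.50 for Mx1, -0.076 to 0.21 for Oas3, -0.57 to 1.01 for Oasl1, -0.28 to 0.076 for Oasl2, -0.11 to 0.55 for Rsad2, -0.88 to 0.040 for Dhx58, -0.040 to 0.26 for Gbp3, -0.30 to 1.18 for Gbp4, -0.050 to 0.17 for Irgm2, -0.12 to 0.38 for Parp9, -0.043 to 0.43 for Trim25, -0.16 to 0.20 for Trim30a, -0.41 to 0.024 for Tap1, -0.56 to 0.047 for Zbp1 and -0.050 to 0.16 for Samhd1. The cause of these turns was not tested. Where a group was left with 1 library, that library was assumed to vary like the other group.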
